A study of Mus musculus with 5 samples.

Results

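The UDP-glucuronosyltransferases (Ugt genes) and the cytosolic sulfotransferases (Sult genes) are the enzyme families that couple glucuronic acid, or other sugars, and sulfate to small molecules. All rows whose symbol begins with Ugt1a, Ugt2a, Ugt2b, Ugt3a or Sult followed by a number were taken, which gave 38 of the 36401 genes counted. They were 20 Ugt genes (9 Ugt1a, 9 Ugt2 and 2 Ugt3a) and 18 Sult genes (6 Sult1, 7 Sult2a and 5 others). Expression was measured by RNA-seq in livers of mouse pups on day 10 of life. There were 2 libraries from Mdr2+/+ pups and 3 from pups with 1 intact allele, Mdr2+/-. Mdr2 is the older name of Abcb4, the canalicular transporter that moves phosphatidylcholine into bile. Pups of both genotypes were BALB/C littermates from a backcross of the Mdr2-/- line, and RNA came from the same lobe of each liver; no group lacked both alleles and no drug or infection was named. The title of the series ties reduced ABCB4 expression to an inflammatory form of biliary atresia. The labels call the libraries replicates but do not say that each came from its own pup. The tests below thus measure only the spread between these libraries, which may be technical except as stated below for Mdr2+/- replicate 1.

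Ugt enzymes sit in the membrane of the endoplasmic reticulum and use a nucleotide sugar, most often UDP-glucuronate, as the donor. Sult enzymes are soluble and take their sulfate from PAPS, the activated form of sulfate. Both reactions make bile acids, steroids, thyroid hormone and drugs more water-soluble, and the liver is a main site of both. Coupling to glucuronic acid does the same for bilirubin.

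The 9 Ugt1a genes share most of their sequence, which bears on all that follows for them. Each has its own first exon and promoter on chromosome 1 and splices into the same downstream exons, so the rows overlap in the annotation (GENCODE M21, build GRCm38, the locus spanning chr1:88055388-88220002 on the plus strand). The 735 coding bases from the second exon onward, which starts at chr1:88215044, were identical in all 9 models. The junctions of the tested genes other than Ugt1a7c are printed with 20 bases on each side, the shared exon in capitals.
Ugt1a1: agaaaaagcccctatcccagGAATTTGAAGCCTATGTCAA
Ugt1a9: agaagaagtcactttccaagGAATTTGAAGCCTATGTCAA
Ugt1a6a: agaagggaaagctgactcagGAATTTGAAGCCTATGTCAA
Ugt1a6b: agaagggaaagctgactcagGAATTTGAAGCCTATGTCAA
Ugt1a5: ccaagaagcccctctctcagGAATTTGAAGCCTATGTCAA
The letters before the junction differed between Ugt1a1, Ugt1a9 and Ugt1a5 and were the same in Ugt1a6a and Ugt1a6b. Of all 50-base stretches in the transcripts, 41.8% of those in Ugt1a1 and 38.0% of those in Ugt1a9 occurred in no other gene. The share was 19.3% in Ugt1a6b and 0.0% in Ugt1a6a, all of whose stretches also occurred in Ugt1a7c. The model of Ugt1a7c includes the exon of Ugt1a6a before the junction (chr1:88138473-88139331), so this value reflects the annotated models. Reads from the shared exons cannot be given to 1 row, and how they were divided is not given in the sources used here.

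The Sult2a genes lie side by side at chr7:13623967-14254870 and are close copies. Coding sequences of the 6 members with a gene model were 87.6 to 97.9% identical, the highest value being for Sult2a1 and Sult2a2 over 582 aligned bases. The first 60 coding bases are printed to show how close they are, with capitals at the 13 positions where the 6 genes were not all alike.
Sult2a1: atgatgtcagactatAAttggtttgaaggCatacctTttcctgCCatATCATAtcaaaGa
Sult2a2: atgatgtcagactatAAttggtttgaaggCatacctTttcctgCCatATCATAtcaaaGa
Sult2a5: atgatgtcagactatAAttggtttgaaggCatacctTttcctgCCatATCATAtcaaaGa
Sult2a4: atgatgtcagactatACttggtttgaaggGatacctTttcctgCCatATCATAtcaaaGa
Sult2a3: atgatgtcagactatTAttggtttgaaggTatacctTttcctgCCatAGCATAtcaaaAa
Sult2a6: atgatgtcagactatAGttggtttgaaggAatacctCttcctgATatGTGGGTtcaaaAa
Sult2a1, Sult2a2 and Sult2a5 were identical over this stretch, and Sult2a6 stood furthest from them. The share of 50-base stretches found in no other gene was 66.8% in Sult2a1, 37.9% in Sult2a2, 65.5% in Sult2a5, 74.5% in Sult2a4, 91.6% in Sult2a3 and 92.7% in Sult2a6. Values of single Sult2a rows are therefore uncertain for Sult2a2 above all, and totals over the cluster are given beside them. Among the 9 Ugt2 genes the share was at least 98.5% in Ugt2b34, Ugt2b1, Ugt2b35 and Ugt2b36, 95.5% in Ugt2a3, 81.7% in Ugt2b37, 62.6% in Ugt2b38, 58.3% in Ugt2b5 and 5.5% in the row listed as Ugt2a1.

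Library totals ranged from 11944157 to 17312851 estimated counts. Values below are CPM, counts scaled to library size, with an adjustment (TMM) for differences in RNA composition. A count of 0 allows up to 3 counts, or 0.174 to 0.252 CPM in a single library, counting error alone considered. Abcb4, the targeted gene, was at 162.1 and 162.1 CPM in the Mdr2+/+ libraries and 100.6, 97.7 and 92.6 CPM in the Mdr2+/- libraries, a log2 fold change of -0.74. A single library stood apart from the rest. Mdr2+/- replicate 1 had 11.3 CPM of Xist, the RNA of the inactive X chromosome, against 285.6 to 425.6 CPM in the other 4, and it alone had high Y-linked transcripts (Ddx3y 79.7 CPM against 0.0607 to 2.27 CPM elsewhere). The labels give no sex, and each result is also given without this library where its call changed. By these values, Mdr2+/- replicate 1 was not a technical repeat of Mdr2+/- replicates 2 and 3. Whether any of the other libraries share a pup was not tested.

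Markers of several cell types moved with genotype as well. All 7 neutrophil markers were higher (summed level 105.1 to 154.1 CPM in Mdr2+/+ and 344.7 to 442.6 CPM in Mdr2+/-), and 4 of 5 erythroid markers were lower (1579 to 1960 CPM and 958.4 to 1059 CPM). Of 6 hepatocyte markers, 1 was higher (Cps1, log2 difference 0.87), 1 was lower (Apoa1, -0.21) and 4 did not pass the test. Their summed level was 158403 to 171803 CPM in Mdr2+/+ and 169349 to 184196 CPM in Mdr2+/-. Most of that sum was Alb, at 119100 and 131500 CPM in Mdr2+/+ and 146400, 136500 and 131600 CPM in Mdr2+/-. Of the markers of tissues that also make these enzymes, Slc12a1, Kap and Aqp2 of the kidney tubule and Sis, Cdx1 and Cdx2 of the intestinal epithelium were at 0 in every library. The kidney tubule genes Lrp2, Umod and Slc34a1 and the intestinal gene Vil1 had some reads, at most 0.589 CPM in any library. The intestinal genes Fabp2 and Lgals4 were expressed and lower. Of 6 sinusoidal endothelial markers, 3 were lower (Fcgr2b, Clec4g and Oit3), with summed levels of 235.1 to 250.8 CPM in Mdr2+/+ and 219.97 to 238.06 CPM in Mdr2+/-. Of 6 Kupffer cell markers 1 was lower (Marco; sums 287.4 to 435.0 CPM and 296.5 to 343.5 CPM), of 6 stellate cell markers 1 was higher (Reln; sums 510.5 to 534.2 CPM and 578.6 to 611.1 CPM), and of 5 tested cholangiocyte markers 0 passed. Among 6 fetal liver genes, with a median log2 difference of -0.07, Afp (-1.63) and Gpc3 (-0.43) were lower and Igf2 (0.36) was higher. The part of these shifts in the results below was not tested, and in bulk tissue fewer cells of a type and less RNA per cell cannot be told apart.

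Of the 38 members, 27 were expressed enough to be tested. The Mdr2+/- libraries had higher levels of 9 of them (33.3% of those tested) and lower levels of 0 at an adjusted p under 0.05 (edgeR quasi-likelihood test, Benjamini-Hochberg over all genes). Over all 13959 tested genes, 12.0% were called, 6.63% higher (925 genes) and 5.41% lower (755 genes). Scaling by library size alone turned that split to 704 higher and 936 lower and moved the median log2 fold change of all genes to -0.04. The 9 members were Ugt1a9, Ugt2b1, Ugt2b36, Ugt2b38, Ugt3a1, Ugt3a2, Sult2a1, Sult2a2 and Sult2a5, with log2 fold changes of 0.33 to 0.88. The median log2 fold change of the tested members was 0.22, against 0 over all tested genes, and it was positive in 70.4% of members against 49.6% of all genes. Levels in the genotypes did not overlap for 15 members that were higher and 2 that were lower (63% together), against 45.5% of all genes (22.9% higher and 22.7% lower). All 9 called members were among the 15.

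**Figure D1:**
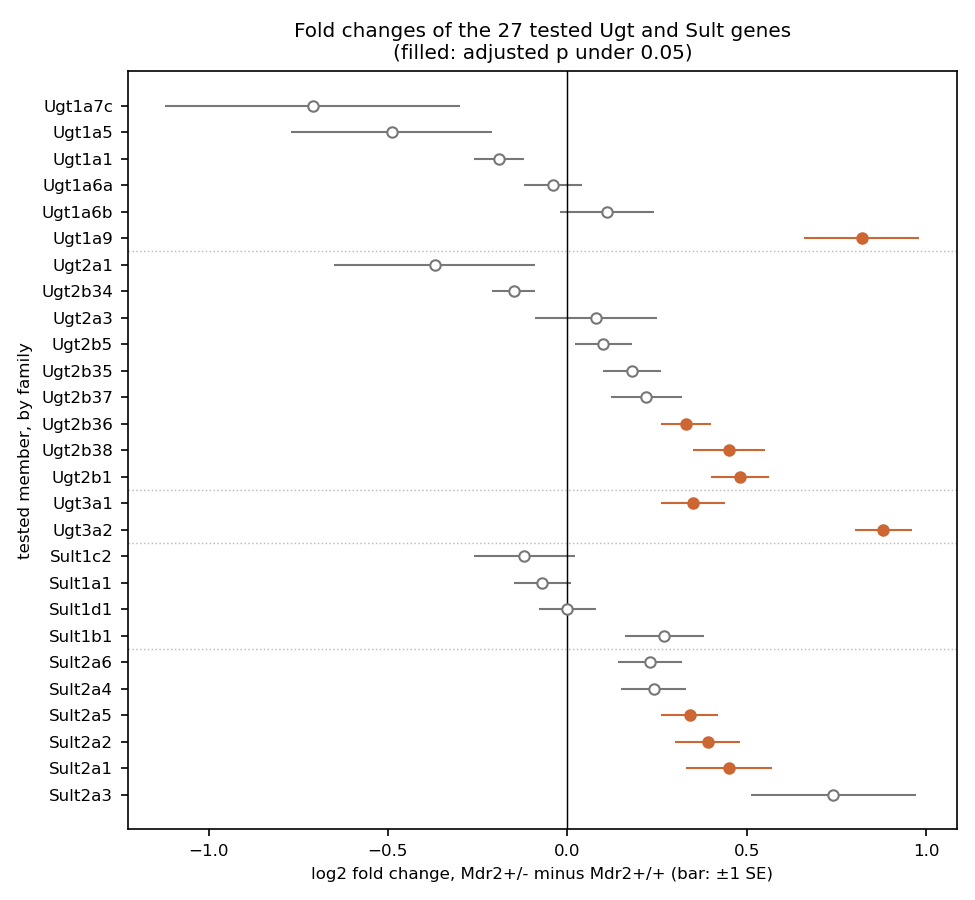
Log2 fold change (Mdr2+/- minus Mdr2+/+) of each of the 27 tested members, grouped by family, with bars of 1 SE; filled points passed the test. The 9 filled points lie between 0.33 and 0.88 and all to the right of 0, and none belongs to Sult1.

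How many members passed depended on the libraries in the fit. Without Mdr2+/+ replicate 1 only Ugt2b1 and Ugt3a2 were called, 2 in all, and without Mdr2+/+ replicate 2 there were 6. Leaving out Mdr2+/- replicate 2 left 3 members and leaving out Mdr2+/- replicate 3 left 4. The share called over all tested genes also fell in every fit with a library left out. It was 12.0% with all libraries, and 8.42%, 6.1% and 7.78% without Mdr2+/- replicates 1, 2 and 3. Without Mdr2+/- replicate 1, the library with Y-linked transcripts, 9 members were called: 7 of those above, with Sult2a3 and Sult2a4 in place of Ugt2b38 (adjusted p = 0.0514) and Ugt3a1 (0.0625). Ugt2b1 and Ugt3a2 passed in the fit with all libraries and in each of the 14 alternatives.

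Within the Ugt1a locus, 1 of 6 tested genes rose, 5 did not pass, and 3 were too low to test. Ugt1a1, the enzyme that conjugates bilirubin, made up most of the locus, with 89.7 to 92.4% of its counts. It was at 761.5 and 848.4 CPM in Mdr2+/+ and 708, 728.3 and 678.3 CPM in Mdr2+/-. All 3 Mdr2+/- libraries lay below both Mdr2+/+ libraries, but the difference of -0.19 (SE 0.07) did not pass (adjusted p = 0.106). It passed as lower with scaling by library size alone (-0.23, adjusted p = 0.0409).

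Ugt1a9, a phenol-conjugating member of the same locus, was at 9.18 and 10.3 CPM in Mdr2+/+ and 14.9, 20.7 and 15.4 CPM in Mdr2+/-. The groups did not overlap, and the rise of 0.82 (SE 0.16) passed (adjusted p = 0.0126), though not without Mdr2+/+ replicate 1 (0.0924). Its share of the counts of the locus was 1.11 and 1.12% in Mdr2+/+ and 1.91, 2.55 and 2.05% in Mdr2+/-. The log2 ratio of Ugt1a9 to Ugt1a1, a pair picked after the values were seen, was higher by 0.98 in Mdr2+/-.

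Ugt1a6a and Ugt1a6b, which conjugate small planar phenols, did not pass the test. Ugt1a6a was at 30.45 and 31.46 CPM in Mdr2+/+ and 29.2, 31.99 and 29.19 CPM in Mdr2+/- (log2 difference -0.04, adjusted p = 0.796). Ugt1a6b was at 22.1 and 25.1 CPM and at 25.9, 28.9 and 21.2 CPM (0.11, adjusted p = 0.64). In both, the genotypes overlapped. Ugt1a5 and Ugt1a7c, both below 10 CPM, had log2 differences of -0.49 and -0.71 that did not pass (adjusted p = 0.279 and 0.303).

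Since Ugt1a rows share exons, their counts were also added. The locus total was 827 and 919 CPM in Mdr2+/+ and 781, 812 and 747 CPM in Mdr2+/-, lower in every Mdr2+/- library, with a ratio of 0.894. Fitted as a single row among all genes, the locus had a log2 difference of -0.16 (SE 0.07) that did not pass (adjusted p = 0.17).

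**Figure D2:**
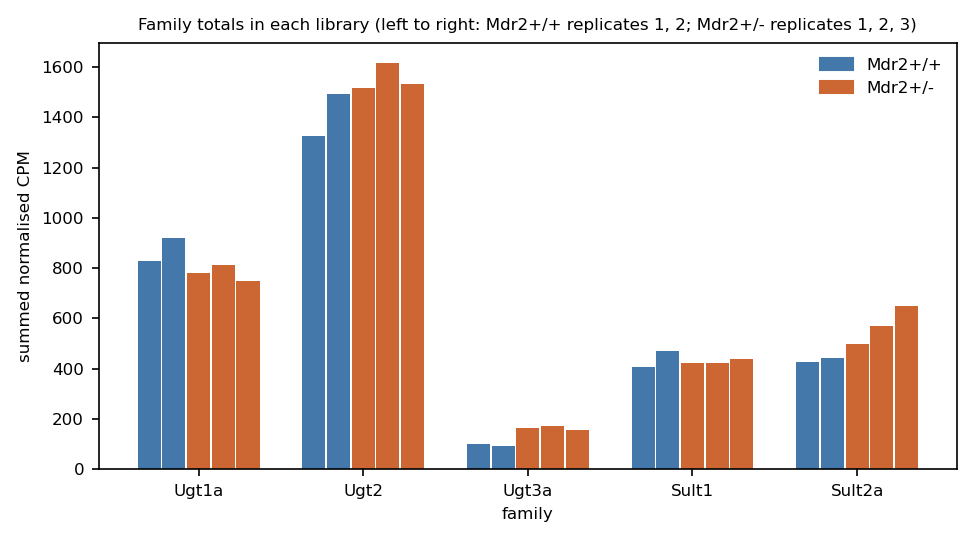
Summed CPM of each family (y axis) for each family (x axis), with a bar for each of the 2 Mdr2+/+ and 3 Mdr2+/- libraries. The Ugt2, Ugt3a and Sult2a totals were higher in all 3 Mdr2+/- libraries, the Ugt1a total was lower, and the Sult1 totals overlapped.

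Among the Ugt2 genes, which conjugate steroids, bile acids and many drugs, 3 of 9 tested genes rose and 6 did not pass, with a median log2 difference of 0.18. The cluster occupies chr5:86889767-87482260, on the chromosome of Abcb4 but 77.9 Mb from it. Its total was 1325 and 1491 CPM in Mdr2+/+ and 1519, 1617 and 1533 CPM in Mdr2+/-, a ratio of 1.11 with no overlap.

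Ugt2b1 was at 158.9 and 193.1 CPM in Mdr2+/+ and 244.9, 248.4 and 242.7 CPM in Mdr2+/-. The Mdr2+/- libraries were nearly level with each other and all above the Mdr2+/+ libraries, and the rise was 0.48 (SE 0.08, adjusted p = 0.0078). Leaving out any library kept it between 0.34 and 0.63, with adjusted p from 0.00388 to 0.0417.

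Ugt2b36 went from 274.9 and 308.5 CPM to 349.5, 380.6 and 366.5 CPM, again without overlap. Its rise of 0.33 (SE 0.07) passed (adjusted p = 0.0209), but not without Mdr2+/+ replicate 1 (0.125), Mdr2+/- replicate 2 (0.0776) or Mdr2+/- replicate 3 (0.0566). Ugt2b38 was at 31.6 and 40.1 CPM and at 50.55, 49.95 and 45.77 CPM. All 3 Mdr2+/- values were above the Mdr2+/+ values, with a rise of 0.45 (SE 0.10, adjusted p = 0.0210) that was lost without Mdr2+/+ replicate 1 (0.125), Mdr2+/- replicate 1 (0.0514) or Mdr2+/- replicate 2 (0.0653).

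Ugt2b34, the most counted gene of the cluster, had a negative difference. It was at 466.4 and 479.1 CPM in Mdr2+/+ and 411.8, 449 and 416.7 CPM in Mdr2+/-. The genotypes did not overlap, yet the difference of -0.15 did not pass (adjusted p = 0.164). Its share of all Ugt2 counts was 35.2 and 32.1% in Mdr2+/+ and 27.1 to 27.8% in Mdr2+/-, whereas that of Ugt2b1 was 12 and 12.9% and then 15.4 to 16.1%.

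The other Ugt2 genes did not pass. Ugt2b5 was at 217.3 and 256.6 CPM in Mdr2+/+ and 253.7, 259.2 and 249.9 CPM in Mdr2+/- (0.10, adjusted p = 0.436). For Ugt2b35 the levels were 123.6 and 142 CPM against 149.4, 157.8 and 142.8 CPM (0.18, adjusted p = 0.172). These groups overlapped for Ugt2b5 and were adjacent for Ugt2b35. Ugt2b37 had 18.6 and 22.5 CPM in Mdr2+/+ and 23.5, 25.6 and 22.6 CPM in Mdr2+/- (0.22, adjusted p = 0.198). Ugt2a3 had 31.8 and 47.2 CPM and then 33.6, 45.4 and 44.6 CPM (0.08, adjusted p = 0.803). Its groups overlapped and those of Ugt2b37 were adjacent. The row listed as Ugt2a1, whose identifier is named Ugt2a2 in GENCODE M21, was below 10 CPM and did not pass (-0.37, adjusted p = 0.438).

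Both Ugt3a genes rose. This small family differs from the others in its donor: human UGT3A1 uses UDP-N-acetylglucosamine, and human UGT3A2 uses UDP-glucose and UDP-xylose. Ugt3a2 was at 79.6 and 68.7 CPM in Mdr2+/+ and 136.3, 145.2 and 129.4 CPM in Mdr2+/-. The gap between the groups was wide against the spread within them, and the rise of 0.88 (SE 0.08, adjusted p = 0.000533) was the greatest among called members. It stayed between 0.79 and 0.99 with any library left out (adjusted p 0.00139 to 0.00291). Ugt3a1, its neighbour at chr15:9276888-9315032, was at 18.5 and 21.2 CPM and then 25.4, 25.5 and 24.7 CPM. That rise of 0.35 (SE 0.09) was close to the threshold (adjusted p = 0.0323). It did not pass without Mdr2+/+ replicate 1 (0.207) or any of Mdr2+/- replicates 1 (0.0625), 2 (0.0978) and 3 (0.0681), nor by DESeq2 (0.098). The pair's total was 98.1 and 89.9 CPM and then 162, 171 and 154 CPM, a ratio of 1.73.

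**Figure D3:**
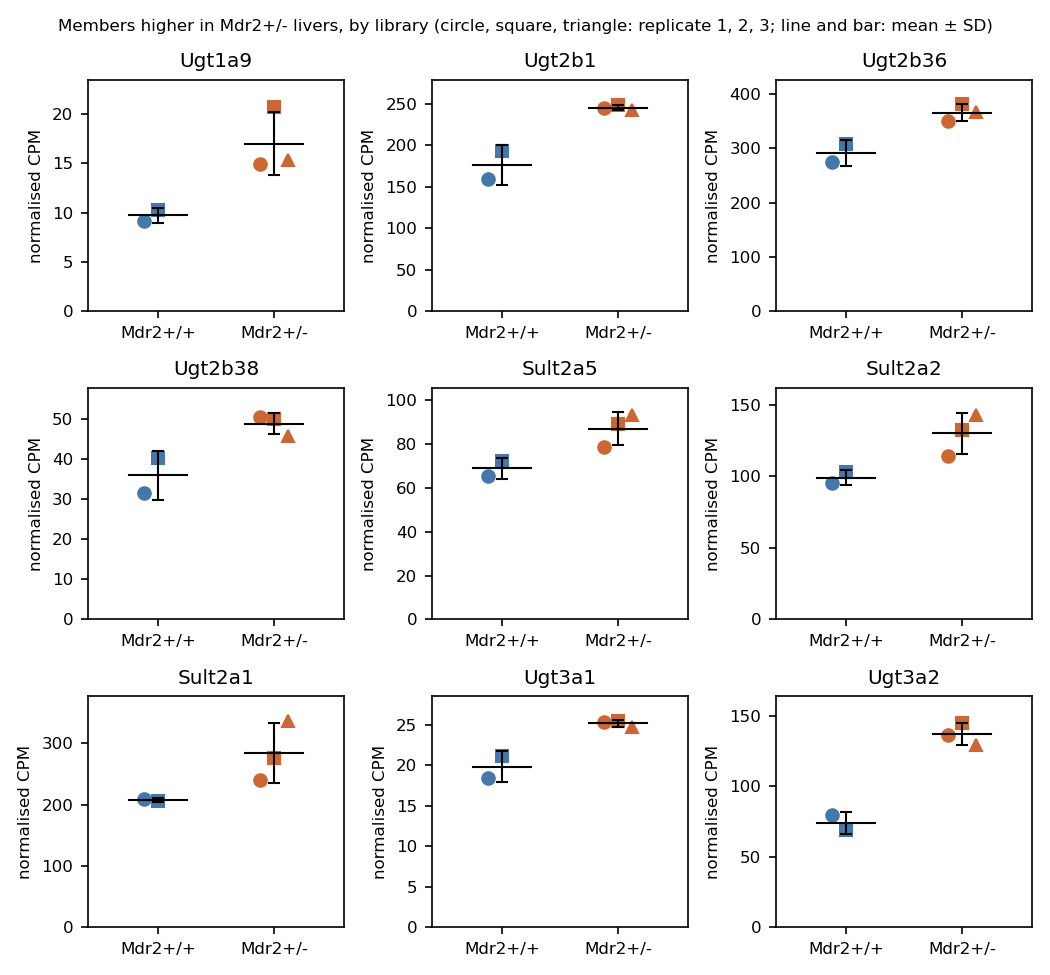
CPM of the 9 called members in each of the 5 libraries (points) with the mean and SD of each group (lines and bars), a panel for each gene with its own axis. In every panel the 3 Mdr2+/- libraries lie above both Mdr2+/+ libraries; in Sult2a1 they spread from 239.8 to 336.4 CPM.

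None of the 4 tested Sult1 genes, which act on phenols, catecholamines and thyroid hormone, passed the test, and their total overlapped between genotypes (407 and 471 CPM, then 423, 421 and 439 CPM). Sult1a1, the phenol sulfotransferase, was at 244.9 and 290 CPM in Mdr2+/+ and 258.5, 246.1 and 258 CPM in Mdr2+/- (-0.07, adjusted p = 0.597). It overlaps Ccdc101 on the opposite strand, and whether counting used the strand is not given in the sources used here. Sult1d1, which acts on catecholamines, was at 132.8 and 143 CPM and at 126.8, 142.3 and 145.3 CPM, with means that hardly differed (137.9 ± 7.20 CPM, SD, n = 2, and 138.1 ± 9.89 CPM, SD, n = 3; adjusted p = 0.983 by edgeR). Sult1b1, a thyroid hormone sulfotransferase, had 13.6 and 16.99 CPM against 18.29, 17.84 and 18.9 CPM. Those groups did not overlap, but the difference of 0.27 did not pass (adjusted p = 0.142). Sult1c2 was at 16.05 and 20.86 CPM and at 19.07, 14.99 and 16.92 CPM, fully overlapping (-0.12, adjusted p = 0.63).

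All 6 Sult2a genes that could be tested, sulfotransferases of hydroxysteroids and bile acids, were higher in every Mdr2+/- library than in either Mdr2+/+ library. Over all tested genes, 22.9% were higher without overlap in this way. The 6 are close copies, and how their reads were divided is not given in the sources used here. They are therefore not 6 separate observations. Of the 6, 3 passed. Sult2a1 was at 209.9 and 205.7 CPM in Mdr2+/+ and 239.8, 275.6 and 336.4 CPM in Mdr2+/-. The Mdr2+/+ libraries were almost equal and the Mdr2+/- libraries widely spread, with a rise of 0.45 (SE 0.12, adjusted p = 0.0405). Sult2a2 was at 95.2 and 102.7 CPM and then 114.3, 132.4 and 143 CPM (rise 0.39, SE 0.09, adjusted p = 0.0253). Sult2a5 was at 65.5 and 72.5 CPM and then 78.7, 89.3 and 93.2 CPM (rise 0.34, SE 0.08, adjusted p = 0.0314). In all 3, Mdr2+/- replicate 3 was highest and Mdr2+/- replicate 1 lowest of its group. The calls of these 3 held with Mdr2+/- replicate 1 left out and were lost with any other library left out, with adjusted p from 0.0527 to 0.187. Sult2a1 also missed the threshold with scaling by library size alone (0.0617) and with robust limma-voom (0.0862).

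Of the rest, Sult2a3 came close. It was at 2.64 and 2.86 CPM in Mdr2+/+ and 3.69, 4.31 and 5.58 CPM in Mdr2+/- (0.74, SE 0.23, adjusted p = 0.0641). Sult2a4 was at 27.1 and 29.4 CPM and at 29.6, 35.8 and 34.6 CPM (0.24, adjusted p = 0.127). Sult2a6 was at 26.4 and 28.5 CPM and at 30.5, 30.7 and 35.4 CPM (0.23, adjusted p = 0.125). Sult2a4 and Sult2a6 thus had the smaller differences of the cluster, with Sult2a4 values of the genotypes almost touching.

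The cluster total, which does not depend on how reads were split between copies, was 427 and 442 CPM in Mdr2+/+ and 497, 568 and 648 CPM in Mdr2+/-, a ratio of 1.31. As a single row it rose by 0.40 (SE 0.10, adjusted p = 0.0333). That call held without Mdr2+/- replicate 1 (0.0102) but not without Mdr2+/+ replicate 1 (0.15), Mdr2+/+ replicate 2 (0.0972), Mdr2+/- replicate 2 (0.0828) or Mdr2+/- replicate 3 (0.0746). The share of Sult2a1 in the total was 46.6 to 49.2% in Mdr2+/+ and 48.3 to 51.9% in Mdr2+/-. A further copy, listed as 2810007J24Rik and named Sult2a8 in GENCODE M21, is no member by its symbol and was looked at after its values were seen. Sult2a8 is known as a bile acid sulfotransferase of mouse liver. It was at 99.7 and 121.8 CPM in Mdr2+/+ and 169.3, 161.3 and 148.1 CPM in Mdr2+/- (rise 0.53, adjusted p = 0.00843; 0.0572 without Mdr2+/+ replicate 1).

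**Figure D4:**
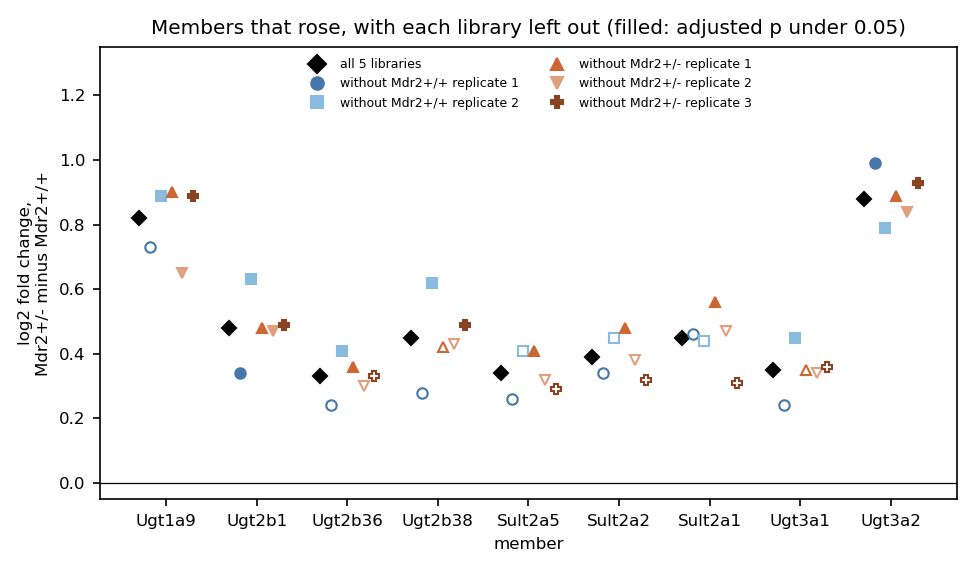
Log2 fold change of the 9 called members with all libraries and with each of the 5 libraries left out in turn; filled points passed the threshold in that fit. Ugt2b1 and Ugt3a2 are filled throughout, and without Mdr2+/+ replicate 1 no other member is.

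The remaining 11 members were too low to test. No read was assigned in any library to Ugt1a8, Sult1c1, Sult2a7 or Sult3a1. For Sult1c1 and Sult3a1 this allows at most 0.111 CPM over Mdr2+/+ and 0.0646 CPM over Mdr2+/-, counting error alone considered. No such limit is given for Ugt1a8, since reads of its shared exons may have gone to other rows. The identifier listed as Sult2a7 has no gene model in GENCODE M21, and the gene named Sult2a7 there was not among the genes counted. Ugt1a10 had 43 counts over the 5 libraries and Ugt1a2 had 7. Sult1e1, the estrogen sulfotransferase, and Sult6b1 had 3 counts each, and Sult2b1, the cholesterol sulfotransferase, Sult4a1 and Sult5a1 had 2 each. The highest mean level among these 11 was 0.57 CPM.

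Per kilobase of the longest transcript, the order of levels was led by the same genes in both genotypes. Ugt1a1 stood at 362 CPM per kilobase in Mdr2+/+ and 317 in Mdr2+/-, and Sult2a1 followed at 204 and 278. Sult1a1 was at 195 and 186 CPM per kilobase, Ugt2b36 at 155 and 194, and Sult2a2 at 134 and 175, the last on a short model of 741 bases. Ugt3a2, with the greatest rise of the called members, stood much lower in the order, at 31.8 and 58.8 CPM per kilobase, and Ugt1a9 lower still, at 4.44 and 7.76. The level of all 38 members together was 3084 and 3413 CPM in Mdr2+/+ and 3381, 3590 and 3521 CPM in Mdr2+/-, which overlapped.

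Promoters of the members were read from RefSeq (GRCm38.p6), which held 32 of the 38 genes. The letters GTTAAT (either strand), the core of the site bound by the hepatocyte factors HNF1, occurred in 12 of 34 member promoters of 250 bases before to 50 after the start, and in 7.1% of all 32851 promoters of that length. TTNNGCAA, a C/EBP motif, occurred in 7 of 34 and in 10.8% of all, and AGGTCA, the nuclear receptor core, in 9 of 34 and in 16.3% of all. Neighbouring promoters of a family are related copies and so not independent. The 250 bases before the start are printed for Ugt1a9 (chr1:88070529-88070778) and Ugt1a1 (chr1:88211709-88211958), which share a locus and of which only Ugt1a9 rose, and for Sult2a5 (chr7:13623717-13623966) and Ugt3a1 (chr15:9279579-9279828), which rose, all on the plus strand with GTTAAT or its reverse complement ATTAAC in capitals.
Ugt1a9: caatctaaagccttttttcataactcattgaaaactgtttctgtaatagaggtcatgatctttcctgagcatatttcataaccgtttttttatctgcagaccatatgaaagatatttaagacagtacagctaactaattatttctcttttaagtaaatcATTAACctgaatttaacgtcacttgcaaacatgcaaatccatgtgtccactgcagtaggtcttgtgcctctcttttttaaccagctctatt
Ugt1a1: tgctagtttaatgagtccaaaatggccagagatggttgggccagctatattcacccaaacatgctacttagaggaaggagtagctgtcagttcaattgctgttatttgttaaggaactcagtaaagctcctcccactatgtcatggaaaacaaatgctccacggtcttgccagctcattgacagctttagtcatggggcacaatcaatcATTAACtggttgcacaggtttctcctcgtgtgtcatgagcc
Sult2a5: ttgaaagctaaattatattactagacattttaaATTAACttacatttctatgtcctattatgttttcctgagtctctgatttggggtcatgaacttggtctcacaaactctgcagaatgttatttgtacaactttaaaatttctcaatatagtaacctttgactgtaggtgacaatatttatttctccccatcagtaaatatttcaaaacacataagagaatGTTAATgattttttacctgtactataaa
Ugt3a1: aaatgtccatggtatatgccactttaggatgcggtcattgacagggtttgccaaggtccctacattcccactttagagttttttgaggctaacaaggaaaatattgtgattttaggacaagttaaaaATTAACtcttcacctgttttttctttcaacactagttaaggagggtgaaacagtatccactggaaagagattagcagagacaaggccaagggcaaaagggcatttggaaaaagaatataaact
These 4 windows were printed because they hold the letters, Sult2a5 on both strands. The promoters of Ugt2b1, Ugt2b36 and Ugt2b38, which also rose, do not hold them, so that 3 of the 6 called members with a promoter in the table did. Among tested members that did not pass, the promoters of Ugt1a1, Ugt1a6a, Ugt2a3, Sult1a1, Sult1d1, Sult2a3, Sult2a4 and Sult2a6 hold them too. Those of the other tested members that did not pass and have a promoter there do not. A match is a description of the letters only.

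Genes that supply, reverse or control the reactions were read from the same fit. The counts of each list stand beside 6.63% called higher and 5.41% called lower over all tested genes, and no list was tested as a set. For the supply and transport of UDP-glucuronate and other nucleotides, 0 of 5 genes rose and 1 fell, with a median of 0 on the log2 scale. Slc35d1, on the same list, was at 66.1 and 71.5 CPM in Mdr2+/+ and 78.0, 78.3 and 82.6 CPM in Mdr2+/-. Its groups did not overlap, but the difference of 0.21 did not pass (edgeR adjusted p = 0.0657). Ugdh, which makes UDP-glucuronate, and Ugp2, which makes its precursor UDP-glucose, had differences of 0 to 2 decimals, with Ugp2 at 222.4 and 245.2 CPM and then 235, 235 and 230.9 CPM. The gene that fell, Slc35b1, encodes a nucleotide transporter of the endoplasmic reticulum and was at 40.5 and 41.1 CPM and then 25.6, 32.4 and 29.9 CPM (-0.47, adjusted p = 0.0139; not called without Mdr2+/+ replicate 1, 0.0646, or replicate 2, 0.0643).

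Of 10 genes for the supply and turnover of sulfate and PAPS, 2 rose and 0 fell. Suox, which oxidises sulfite to sulfate, went from 135.5 and 144.4 CPM to 184.4, 221.5 and 190.5 CPM (0.51, adjusted p = 0.00696; 0.0577 without Mdr2+/+ replicate 1). Slc26a1, a sulfate transporter of the hepatocyte membrane, went from 205.4 and 193.4 CPM to 234.4, 255.2 and 242.9 CPM (0.29, adjusted p = 0.0228), and was called in 1 of the 5 fits that left out a library, the fit without Mdr2+/- replicate 1, and not with the replicate block (0.0666). Papss2, the main hepatic PAPS synthase, did not pass (0.05, adjusted p = 0.683), nor did Papss1 (-0.24, adjusted p = 0.0722). None of the 4 tested genes listed for the removal of these groups passed (Gusb, Arsa, Arsb and Sumf1). Sts, also on that list, was not among the genes counted.

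Among 5 exporters of conjugates, 1 rose and 1 fell. Abcc2, which carries bilirubin glucuronides into bile, was at 107.2 and 121.6 CPM and then 166.3, 158.4 and 137.5 CPM (0.43, adjusted p = 0.0176; lost without Mdr2+/+ replicate 1, 0.123, without Mdr2+/- replicate 2, 0.058, and with the transcript length offset, 0.0616). Abcg2, which carries sulfate conjugates, was at 59.5 and 65.8 CPM and then 54.4, 50.9 and 47.5 CPM (-0.30, adjusted p = 0.0367). It was called in 1 of the 5 fits with a library left out, the fit without Mdr2+/- replicate 1, and neither by DESeq2 (0.0583) nor with the replicate block (0.11).

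Of 19 tested regulators known to act on these families, 6 rose and 0 fell, with a median of 0.10. Over all tested genes, 6.63% rose and 5.41% fell, with a median of 0. Rxra, the shared partner of many nuclear receptors, was at 195.3 and 208.8 CPM and then 277.4, 270 and 267.8 CPM (0.43, adjusted p = 0.00384). Ppara, the fatty acid receptor, was at 50.9 and 54.3 CPM and then 109.2, 102.8 and 75.4 CPM (0.86, adjusted p = 0.00517; 0.0503 without Mdr2+/+ replicate 1). Esr1, the estrogen receptor, rose by 0.51 (adjusted p = 0.00499), from 26.95 and 30.37 CPM to 43.09, 39.15 and 40.07 CPM. Arnt, the partner of Ahr, rose by 0.32 (adjusted p = 0.0188). Its call was lost without Mdr2+/+ replicate 1, Mdr2+/+ replicate 2 or Mdr2+/- replicate 3, by DESeq2 (0.0658) and with the replicate block (0.0693). The xenobiotic receptors Nr1i2 (0.19, adjusted p = 0.291) and Nr1i3 (0.00, adjusted p = 0.992) did not pass, and the bile acid receptor Nr1h4 came close on the lower side (-0.29, adjusted p = 0.0532).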

How the data were processed

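Total RNA from snap-frozen liver was sequenced on an Illumina HiSeq after TruSeq preparation, per the labels' protocols; TopHat and the mouse build mm10 are named per the submitters' processing notes, and for the counting tool, its annotation, the read length and the use of strand: not given in the sources used here. The authors deposited a table per library of estimated counts per Ensembl gene, not scaled to depth or length; 33.9 to 37.3% of values above 0 were whole numbers (tolerance 1e-06). The other values were fractions, so near-identical genes are uncertain. Library totals and the floor are given above, and 0 columns were without a sample.

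Counts were rounded and filtered (filterByExpr, minimum count 10), scaled by TMM and tested by edgeR's quasi-likelihood test (edgeR 4.0.16, R 4.3.3; two-sided, no covariate) over 13959 genes with Benjamini-Hochberg adjustment and a threshold of 0.05. Fold changes are Mdr2+/- minus Mdr2+/+ on the log2 scale, with an SE from the fold change and the F statistic. Alternatives were RLE scaling, library size alone, other filters, DESeq2 1.42.0, limma-voom (limma 3.58.1, robust), a replicate block, a transcript length offset, summed rows and each library left out. The script was tested on simulated data. All pairs of libraries differed by more than sampling noise (chi-square per degree of freedom 5.3 to 8.86 within a genotype, 18.3 to 25.8 between). Sequences came from GENCODE M21 and RefSeq; Sult2a coding sequences were aligned with MAFFT 7.526.

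Members past the threshold, with a mean of at least 10 CPM, or with an adjusted p of 0.05 to 0.10 are given in every library, and up to 4 called genes of each pathway list are named by p-value; other pathway genes named without a call were picked for their role after their values were seen. The members, the lists and this rule were chosen with earlier results of these data known. A called gene of the pathway lists is not reported here by name.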

Additional observations from a re-analysis of the deposited data

How the results depend on the processing

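Members called higher numbered 9 with all libraries and 2 to 9 with a library left out; over all genes the counts went from 925 higher and 755 lower to 345 to 670 higher and 352 to 504 lower, and for the pathway genes from 11 higher and 3 lower to 3 to 10 higher and 0 to 3 lower. These fits hold fewer samples, and where a Mdr2+/+ library is left out the lone one is assumed to vary like the others. Scaling by library size alone called 1 member (Ugt1a1) and 5 pathway genes lower; DESeq2 called 1 pathway gene lower. The ratio of the Sult1 totals was 0.974, and 0.906 to 1.05 with a library left out, 1.05 without Mdr2+/+ replicate 2. Signs turned only in members that did not pass: Ugt1a6b (-0.0045 without Mdr2+/- replicate 2), Ugt2b5 (-0.02) and Ugt2a3 (-0.19) without Mdr2+/+ replicate 1, Sult1d1 (-0.03 with library size alone, -0.04 with the block, -0.05, -0.02 and -0.03 without Mdr2+/+ replicate 1 and Mdr2+/- replicates 2 and 3), Sult1a1 (0.03 with the length offset, 0.06 without Mdr2+/+ replicate 2) and Sult1c2 (0.08 without the latter); with a library left out these reached -0.0045 to 0.23 for Ugt1a6b, -0.02 to 0.23 for Ugt2b5, -0.19 to 0.38 for Ugt2a3, -0.05 to 0.06 for Sult1d1, -0.19 to 0.06 for Sult1a1 and -0.31 to 0.08 for Sult1c2, and the cause was not tested. The length offset called 12 members, adding Sult2a3, Sult2a4 and Sult2a6, beside 9.56% of all tested genes. Testing without a filter called 10, adding Sult2a3, beside 10.3% of all tested genes. Depth limits the 11 untested members.

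The genotypes share replicate numbers 1 and 2. Deviations from the group means correlated at 0.05 and 0.04 for same-numbered libraries, and at -0.05 to 0.01 for other pairs. With 2 Mdr2+/+ libraries, the deviations of the one mirror those of the other, so these pairs are not separate comparisons. Whether same-numbered libraries share a batch or litter cannot be told from these values. The replicate block called 730 genes higher and 547 lower, 7 members higher and 1 pathway gene lower; Sult2a1 (adjusted p = 0.0628) and Ugt3a1 (0.0636) were not called.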

Other observations

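The membrane-bound sulfotransferases of the Golgi, which sulfate proteoglycans and glycolipids and form a family apart from the cytosolic Sult genes, were read from the same fit. Of 20 tested, 2 were higher and 1 lower in Mdr2+/-, a share near the 12.0% called over all genes, with a median log2 difference of 0.21. Ndst1, which starts the sulfation of heparan sulfate chains, was at 79.4 and 80.7 CPM in Mdr2+/+ and 153.8, 151 and 122.4 CPM in Mdr2+/- (0.83, edgeR adjusted p = 0.00136), and it passed in all 14 alternatives. Chst3, a chondroitin sulfotransferase, was at 2.05 and 1.68 CPM and then 4.32, 3.82 and 5.58 CPM (1.28, adjusted p = 0.0107; 0.0514 and 0.061 without Mdr2+/+ replicates 1 and 2). Gal3st1, the sulfatide synthase, was at 7.66 and 7.74 CPM and then 4.47, 5.46 and 4.65 CPM (-0.66, adjusted p = 0.0219), and passed in 1 of the 5 fits with a library left out, the fit without Mdr2+/- replicate 2, and neither by DESeq2 (0.0585) nor with the replicate block (0.0589).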
